A study of Mus musculus with 62 samples.

Results

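The 10 genes described here encode enzymes of mitochondrial fatty acid β-oxidation, and they were chosen by symbol from the 23038 genes that each deposited table lists. They are Cpt1a, Cpt2, Acadvl, Acadl, Acadm, Acads, Hadha, Hadhb, Acaa2 and Etfdh. They were put forward with earlier results of these libraries in view, and which measured values led to the choice is not known here. Their fold changes and adjusted p-values are therefore given as a description of each gene, and nothing is supported by them.

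The series holds 62 mouse libraries in 15 groups on a BL6 background. At P21, 4 brain regions (substantia nigra, caudate putamen, hypothalamus and periaqueductal gray, PAG; 4 libraries for each genotype) and the pituitary (3 libraries for each genotype) were taken from mice labelled cKO, in which Nova1 was deleted in inhibitory neurons, and from mice labelled cHet, used here as controls. Translating ribosome affinity purification (TRAP), which recovers RNA bound to tagged ribosomes, was done on whole brain of cKO and cHet mice at P0 (n = 6 per genotype). Primary neurons were grown from e13.5 embryos (ventral diencephalon and mesencephalon) and were infected at DIV7 with lentivirus carrying eGFP (WT), eGFP and Cre (Nova1 KO), or eGFP, Cre and Impact (Nova1 KO + Impact), with RNA taken at DIV14 (n = 4 each). The control cultures thus carried virus and eGFP as well. The labels do not name the Cre driver or the cHet alleles, and they do not say whether the brain regions of 1 number came from 1 animal. They also do not say whether libraries of a group came from separate animals or cultures, so p-values measure the spread between these libraries, which may be technical.

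Fatty acids enter the mitochondrion as carnitine esters. Cpt1a, on the outer membrane, makes the ester in the step that limits the rate, and Cpt2, on the inner membrane, turns it back into acyl-CoA. Each round of β-oxidation then begins with an acyl-CoA dehydrogenase (Acadvl, Acadl, Acadm and Acads, for very long, long, medium and short chains), which passes electrons through the electron transfer flavoprotein to its dehydrogenase Etfdh and so to ubiquinone. The mitochondrial trifunctional protein, built from Hadha and Hadhb subunits, carries out the later steps on long chains, and the thiolase Acaa2 cleaves acetyl-CoA from shorter ones. In brain this pathway is known mainly from astrocytes, while neurons rely on it little.

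Depth ran from 15.4 to 24.3 megatags (tags counted in M) in the brain regions, from 2.24 to 3.10 megatags in pituitary, from 7.38 to 25.4 megatags in TRAP and from 20.9 to 29.5 megatags in primary neurons. Rn45s, a ribosomal RNA gene, took 0.472 to 1.89% of the tags in brain regions and up to 40.8% in pituitary. In TRAP it took 13.75 to 25.6% and in primary neurons 5.30 to 8.40%. The leading marker of each tissue was highest there: Gh in pituitary, Slc6a3 in substantia nigra, Drd1a in caudate putamen, Tph2 in periaqueductal gray and Pmch in hypothalamus. Among the other tissue markers Tac1, listed for periaqueductal gray, was the exception and was highest in caudate putamen. Caudate putamen cKO 1 has labels that conflict: the tissue tag, used here, says caudate putamen, and the title says periaqueductal gray. It held 188.3 Drd1a tags per M, beside 187.1 to 207 in the 3 remaining cKO libraries of the caudate putamen and 1.37 to 2.75 in PAG cKO. Nova1 fell in hypothalamus, caudate putamen, substantia nigra, TRAP and KO neurons. It did not pass in PAG (log2 fold change -0.30, adjusted p = 0.114) or pituitary (-0.85, adjusted p = 0.761).

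The trifunctional protein genes and Acadm fell in cKO in some brain regions. Of 40 values (10 genes in 4 regions), 35 had a log2 fold change below 0, 9 fell past an adjusted p of 0.05 and 0 rose. Hadha fell in hypothalamus, caudate putamen and substantia nigra, Hadhb in hypothalamus, PAG and caudate putamen, Acadm in hypothalamus and caudate putamen, and Cpt1a in substantia nigra. The fitted change of these 9 lay between -0.35 and -0.21 on the log2 scale. Acadvl, Acadl, Acads, Cpt2, Acaa2 and Etfdh passed in none of the 4 regions.

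By region, 3 of 10 genes fell and 0 rose in hypothalamus, where 6.42% of all genes tested fell and 5.57% rose (12% called in all). In PAG 1 of 10 fell and 0 rose, beside 5.39% and 4.33% of all genes (9.73% called). In caudate putamen 3 of 10 fell and 0 rose, beside 5.06% and 5.32% (10.4% called). In substantia nigra 2 of 10 fell and 0 rose, beside 5.46% and 4.35% (9.81% called). The median log2 fold change of the 10 genes was -0.14, -0.13, -0.11 and -0.10 in these regions in that order, and that of all genes tested was 0.00 in each. Since the genes were put forward with results known, these counts are not read against the shares of all genes. In bulk tissue, fewer cells of a type and less RNA per cell cannot be told apart.

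**Figure D1:**
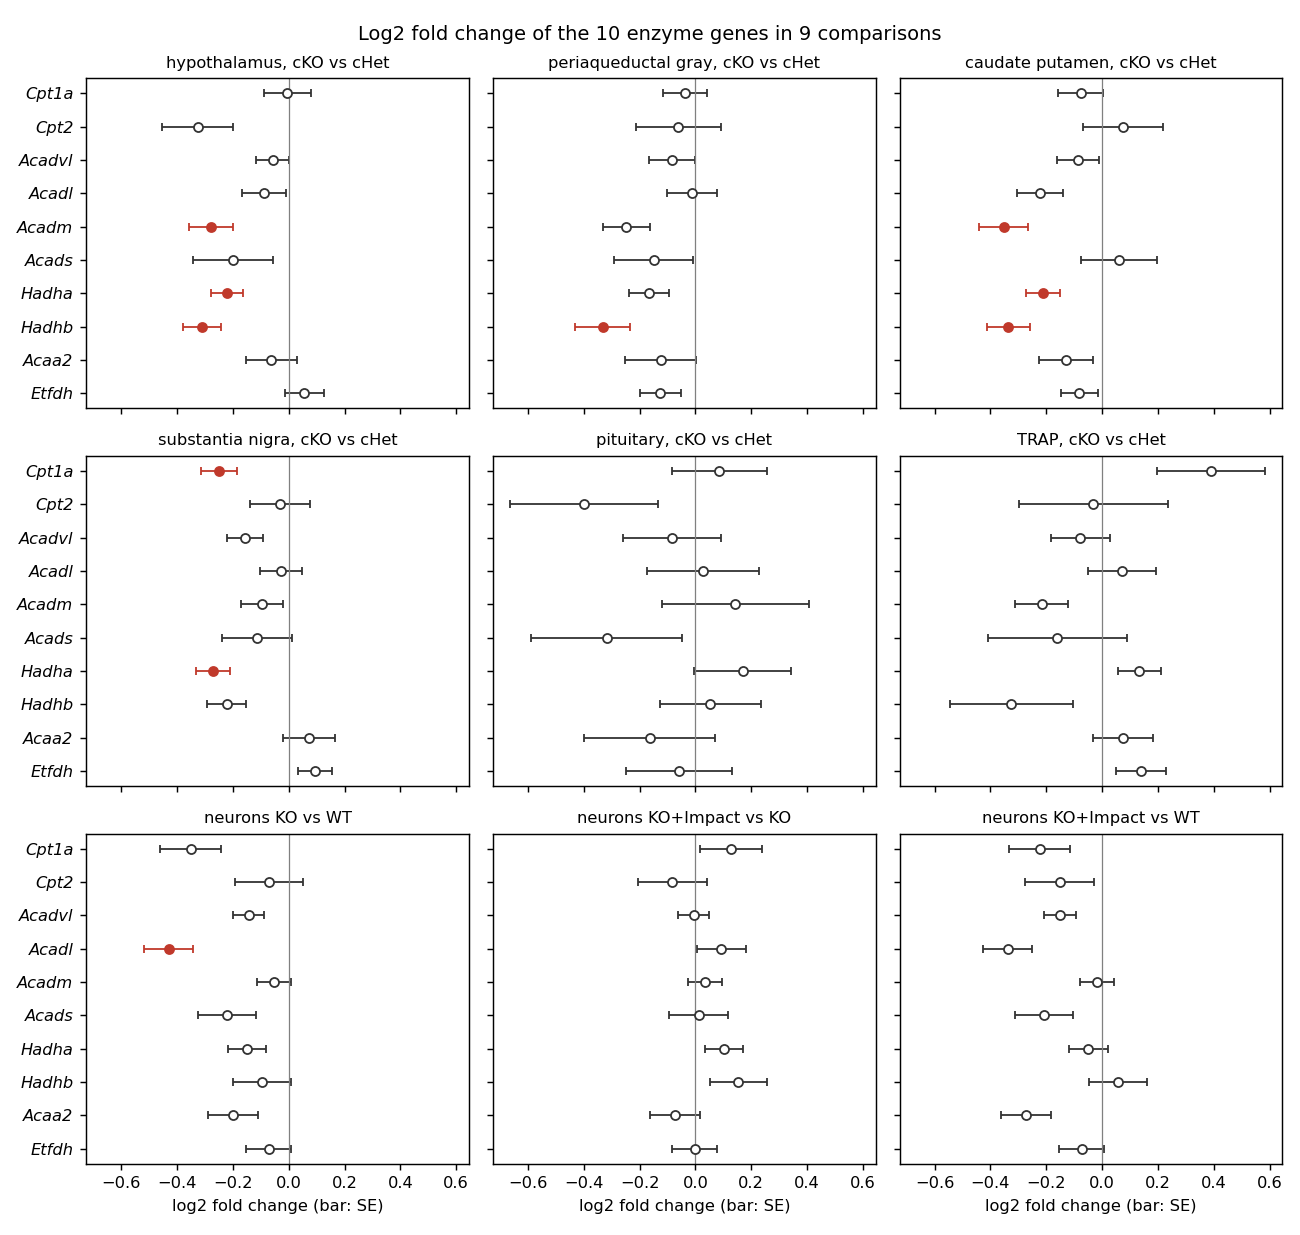
Fitted log2 fold change (x axis) of each of the 10 genes (y axis) in the 9 comparisons, with bars of 1 SE; filled red points passed an adjusted p of 0.05 over all genes. In the 4 brain regions 35 of 40 points lie left of 0 and 9 are filled, and Acadl is the filled point in neurons.

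Hadha and Hadhb lie head to head on chromosome 5 (GRCm38.p6), Hadha on the minus strand at 30119423 to 30154980 and Hadhb on the plus strand at 30155253 to 30184593, with 273 bases between their starts. Their RefSeq promoter windows, from 250 bases before to 50 after each start, share 228 bases. The sequences are shown because both genes fell in cKO in 3 of the 4 regions and share this stretch. Capitals mark the shared bases, and each sequence is written on its gene's own strand, so the capitals are reverse complements of each other.
Hadha promoter, chr5:30154931-30155230, minus strand: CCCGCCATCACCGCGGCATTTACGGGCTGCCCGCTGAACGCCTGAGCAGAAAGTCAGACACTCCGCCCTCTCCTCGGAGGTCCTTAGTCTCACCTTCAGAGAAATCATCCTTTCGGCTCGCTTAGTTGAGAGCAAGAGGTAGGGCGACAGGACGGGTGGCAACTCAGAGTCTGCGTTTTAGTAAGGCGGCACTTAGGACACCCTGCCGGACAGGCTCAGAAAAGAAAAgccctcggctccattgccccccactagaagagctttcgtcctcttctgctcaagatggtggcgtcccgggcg
Hadhb promoter, chr5:30155003-30155302, plus strand: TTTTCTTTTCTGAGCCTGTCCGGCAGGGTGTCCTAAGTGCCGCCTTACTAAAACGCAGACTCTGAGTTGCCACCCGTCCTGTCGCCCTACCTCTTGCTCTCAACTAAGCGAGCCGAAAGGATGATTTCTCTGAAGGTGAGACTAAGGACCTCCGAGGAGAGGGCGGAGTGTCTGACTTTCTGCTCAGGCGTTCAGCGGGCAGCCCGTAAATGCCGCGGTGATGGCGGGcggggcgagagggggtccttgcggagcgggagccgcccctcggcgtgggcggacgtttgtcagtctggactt
Windows of this size were searched on both strands for AGGTCA (the core site of many nuclear receptors), TNAAGGTCA (the extended site of the ERR receptors) and CCAAT. Each TNAAGGTCA match is also an AGGTCA match. None of these 3 motifs was found in the Hadha or the Hadhb window.

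Hadha, the subunit with the hydratase and long-chain 3-hydroxyacyl-CoA dehydrogenase activities, had 126, 128, 124 and 123 CPM in the 4 hypothalamus cHet libraries and 107, 95.3, 115 and 112 CPM in cKO. CPM are tags per M of the scaled library size. Every cKO library lay below every cHet library, with means of 125 ± 2.13 and 107 ± 8.67 CPM (SD, n = 4 each), and the log2 fold change was -0.22 (SE 0.06, adjusted p = 0.0181). In caudate putamen Hadha had 125, 124, 125 and 123 CPM in cHet and 101, 99.6, 116 and 113 CPM in cKO. The groups again did not overlap (log2 fold change -0.21, SE 0.06, adjusted p = 0.0355).

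In substantia nigra, where Hadha was highest, cHet libraries had 201, 193, 187 and 209 CPM and cKO libraries 165, 157, 172 and 161 CPM. The groups did not overlap, and the log2 fold change was -0.27 (SE 0.06, adjusted p = 0.0145). In PAG Hadha had 124, 130, 113 and 116 CPM in cHet and 102, 102, 104 and 122 CPM in cKO. Here cKO 4 lay within the cHet range and the gene did not pass (-0.17, SE 0.07, adjusted p = 0.159). Without that library the value was -0.23 (adjusted p = 0.0402).

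Hadhb, the thiolase subunit, had 52.3, 48.4, 50.6 and 55.3 CPM in hypothalamus cHet and 39.6, 40.7, 40.6 and 45.8 CPM in cKO. The groups did not overlap, and the log2 fold change was -0.31 (SE 0.07, adjusted p = 0.00744). In caudate putamen it had 49.2, 44.3, 45.1 and 48.3 CPM in cHet and 31.9, 38.8, 39.6 and 37.6 CPM in cKO, without overlap (-0.34, SE 0.08, adjusted p = 0.0122). These 2 calls held when any 1 of the 8 libraries was left out.

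In PAG Hadhb had 48.4, 58.1, 65.3 and 54.6 CPM in cHet and 48.0, 37.5, 44.4 and 49.7 CPM in cKO. The groups overlapped, since cKO 4 lay above cHet 1, and the log2 fold change was -0.33 (SE 0.10, adjusted p = 0.0402). This call ended without any of 5 of the 8 libraries (cKO 2 or 3, cHet 2, 3 or 4), with adjusted p from 0.0688 to 0.147. In substantia nigra Hadhb had 95, 101, 101 and 102 CPM in cHet and 75.7, 83.8, 91.5 and 90.8 CPM in cKO. These groups did not overlap, but the gene did not pass with edgeR (-0.22, SE 0.07, adjusted p = 0.0629), while it passed with DESeq2 (adjusted p = 0.0320).

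The calls of Hadha were less stable than those of Hadhb in caudate putamen. There the Hadha call ended without any of 6 of the 8 libraries (cKO 1 or 2, or any cHet library), with adjusted p from 0.0724 to 0.109. In hypothalamus it ended without cKO 2 (0.0678), and in substantia nigra without cHet 1 (0.0512). Without caudate putamen cKO 1, whose labels conflict, Hadha was at -0.18 (adjusted p = 0.0850), Hadhb at -0.27 (0.0293) and Acadm at -0.33 (0.0435), so 2 of 10 genes remained called there in place of 3.

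**Figure D2:**
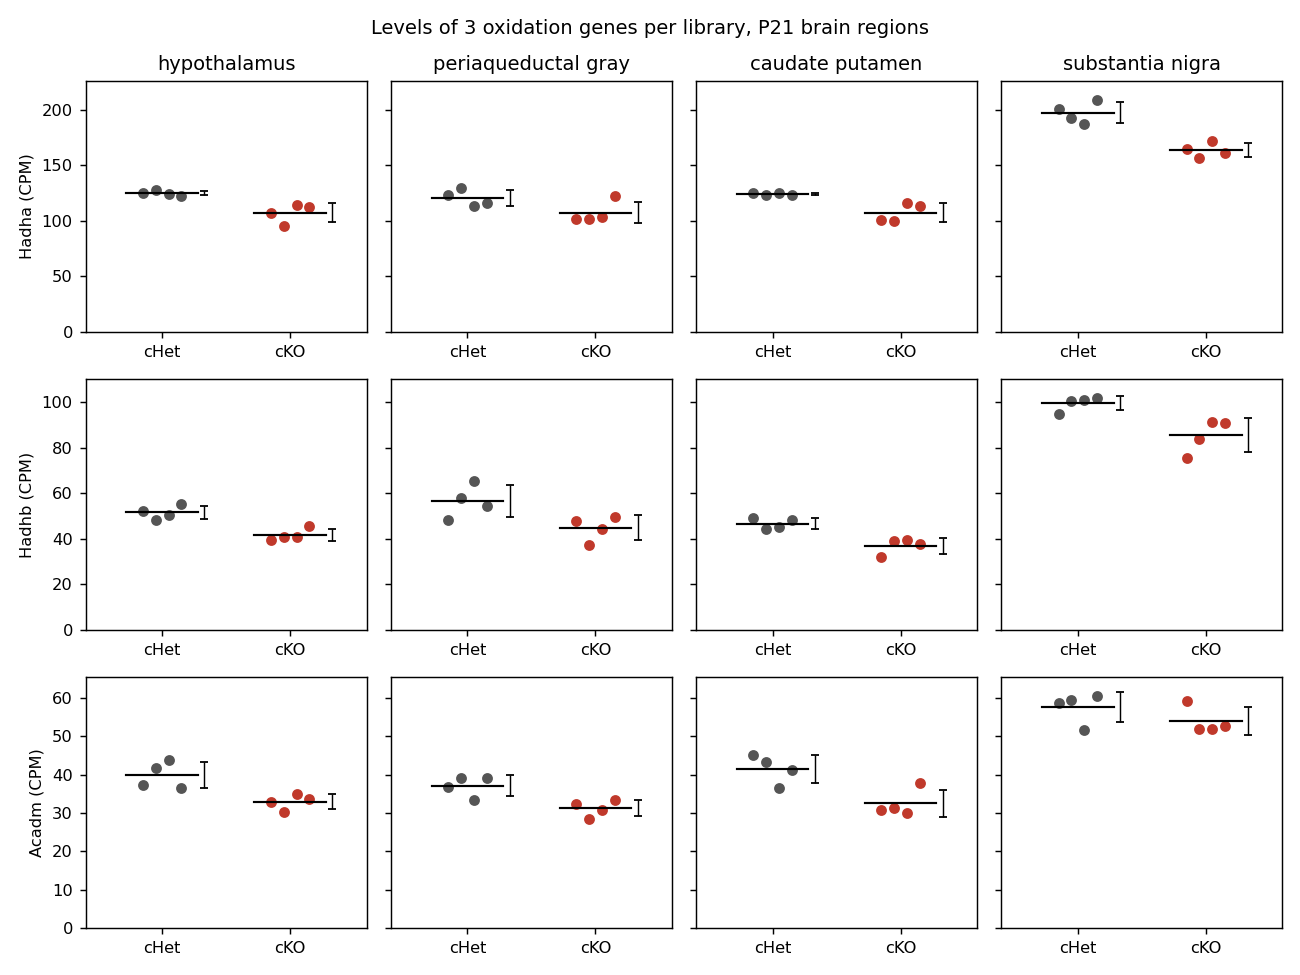
CPM of Hadha, Hadhb and Acadm (rows; y axes start at 0) in each library of the 4 brain regions (columns), cHet in grey and cKO in red; horizontal lines are means and bars beside them 1 SD (n = 4). Hadha and Hadhb separate without overlap in hypothalamus, caudate putamen and substantia nigra, and Acadm in hypothalamus and PAG.

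Among the acyl-CoA dehydrogenases, Acadm (chromosome 3, 153922353 to 153944643, minus strand) was the one that passed in brain. Its promoter window holds AGGTCA on the strand opposite to the gene, near the upstream end of the window. It is shown because Acadm is the dehydrogenase that passed in brain, and the capitals mark the match as the reverse complement of AGGTCA.
Acadm promoter, chr3:153944594-153944893, minus strand: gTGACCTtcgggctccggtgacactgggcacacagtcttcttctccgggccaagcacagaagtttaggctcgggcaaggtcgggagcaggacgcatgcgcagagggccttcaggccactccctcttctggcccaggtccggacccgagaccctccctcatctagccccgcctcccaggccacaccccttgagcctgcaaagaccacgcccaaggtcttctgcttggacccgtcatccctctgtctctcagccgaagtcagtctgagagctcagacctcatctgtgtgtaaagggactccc
AGGTCA was found in 16.3% of 32851 promoter windows and in 3 of the 9 windows searched for these genes (Cpt1a, Acadvl and Acadm). TNAAGGTCA (1.28% of windows) was in none of the 9, and CCAAT (37.4% of windows) was in Cpt1a and Etfdh. A match describes the letters only, and says nothing about a factor.

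In hypothalamus Acadm had 37.4, 41.8, 43.9 and 36.6 CPM in cHet and 32.9, 30.2, 34.9 and 33.7 CPM in cKO. The groups did not overlap (log2 fold change -0.28, SE 0.08, adjusted p = 0.0252). In caudate putamen it had 45.0, 43.2, 36.4 and 41.2 CPM in cHet and 30.9, 31.4, 29.9 and 37.8 CPM in cKO, and the highest cKO library lay above the lowest cHet library (-0.35, SE 0.09, adjusted p = 0.0187). The hypothalamus call ended without cKO 1 or 2 or cHet 2 or 3 (adjusted p 0.0565 to 0.0874), and the caudate putamen call without cHet 1 or 2 or cKO 2 (0.0566 to 0.0609).

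In PAG Acadm was at 37.1 ± 2.72 CPM in cHet and 31.2 ± 2.16 CPM in cKO, without overlap, and did not pass (-0.25, SE 0.08, adjusted p = 0.0711). It passed there without cHet 3 (adjusted p = 0.0409). In substantia nigra Acadm overlapped between cHet (57.6 ± 4.0 CPM) and cKO (53.9 ± 3.60 CPM), with a log2 fold change of -0.09 (SE 0.07, adjusted p = 0.465).

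Acadvl, the first dehydrogenase for very long chains, was the most abundant of the 4 dehydrogenases in each region by CPM per kb of exon. Its log2 fold change lay between -0.16 and -0.06. In substantia nigra it had 117, 115, 112 and 119 CPM in cHet and 110, 99.8, 110.5 and 95.2 CPM in cKO, without overlap, but did not pass (-0.16, SE 0.07, adjusted p = 0.152). Acadl lay between -0.22 and -0.01. Its largest difference was in caudate putamen, with 45.6 ± 2.37 CPM in cHet and 39.1 ± 4.69 CPM in cKO (-0.22, SE 0.08, adjusted p = 0.0966). There it passed without cKO 3 (adjusted p = 0.0214). Acads lay between -0.20 and 0.06, with its groups overlapping in all 4 regions.

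Of the carnitine palmitoyltransferases, Cpt1a fell in substantia nigra, from 73.7, 71.1, 72.6 and 72.2 CPM in cHet to 66.3, 59.1, 57.4 and 61.0 CPM in cKO. Every cKO library lay below every cHet library, and the log2 fold change was -0.25 (SE 0.07, adjusted p = 0.0283). This call ended without any of 5 of the 8 libraries (cHet 1, 2 or 4, cKO 2 or 3), with adjusted p from 0.0501 to 0.0844. In the other 3 regions Cpt1a was between -0.08 and 0.00, with overlapping groups. Cpt2 was at 9.26 ± 1.01 CPM in hypothalamus cHet and 7.38 ± 0.807 CPM in cKO, without overlap, and did not pass (-0.33, SE 0.13, adjusted p = 0.104). In the other 3 regions it lay between -0.06 and 0.07.

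The thiolase Acaa2 lay between -0.13 and 0.07 in the 4 regions, with overlapping groups in each. Etfdh, which takes electrons from all these dehydrogenases, lay between -0.13 and 0.09. In substantia nigra its cKO libraries (62.1, 63.2, 59.2 and 61.1 CPM) all lay above its cHet libraries (57.7, 58.3, 58.0 and 56.1 CPM), and the gene did not pass (0.09, SE 0.06, adjusted p = 0.371). Etfdh overlaps Ppid on the genome, and whether tags were counted by strand is not given in the sources used here, so its level is uncertain.

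Groups that did not overlap were found for 4 of the 10 genes in hypothalamus, where 16.4% of all genes tested did not overlap, and for 1 in PAG (15.6%). There were 2 in caudate putamen (16.4%) and 5 in substantia nigra (15.9%). A fit over the 32 brain region libraries tested whether the effect of genotype differed between regions, and 51 of 16042 genes passed (0.318%). Of the 10 enzyme genes 0 passed (lowest adjusted p = 0.502, Etfdh, with an unadjusted p of 0.0334, the only one of the 10 under 0.05). The regions were thus not shown to differ for Cpt1a (adjusted p = 0.714), Hadha (0.971), Hadhb (0.990) or Acadm (0.770), although different genes passed in different regions.

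Markers of other cells moved in the same comparisons. Of the endothelial and pericyte markers, 6, 4, 3 and 4 of 13 fell in hypothalamus, PAG, caudate putamen and substantia nigra, and 0 rose. Their summed level ran from 267 to 319 CPM in hypothalamus cHet and 212 to 247 in cKO, from 265 to 331 and 195 to 252 in PAG, from 353 to 409 and 272 to 332 in caudate putamen, and from 360 to 432 and 289 to 326 in substantia nigra. Of the oligodendrocyte markers, 9, 6, 3 and 5 of 14 fell and 0 rose, with summed levels of 16052 to 18850 CPM in hypothalamus cHet and 13049 to 17193 CPM in cKO. In the other regions their sums were 25647 to 31226 and 22946 to 28727 CPM, 19825 to 23922 and 18618 to 24064 CPM, and 46558 to 63799 and 45891 to 53189 CPM. None of these 27 markers was at 0 in all libraries of a region.

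Astrocyte markers moved both ways. In hypothalamus 3 rose and 4 fell of 15, in PAG 3 and 2, in caudate putamen 1 and 3, and in substantia nigra 2 and 0, and the summed levels of cHet and cKO overlapped in all 4 (5888 to 6253 and 5902 to 6122 CPM in hypothalamus, 6224 to 6797 and 6352 to 6829 in PAG, 6568 to 6965 and 6321 to 6994 in caudate putamen, 9831 to 10678 and 9313 to 10977 in substantia nigra). Red blood cell genes fell in 4 of 4, 3 of 5, 2 of 5 and 2 of 5 tested. Microglia markers rose in 0, 0, 0 and 1 and fell in 0, 0, 0 and 1 of 12. Neuron markers rose in 1, 1, 0 and 0 and fell in 1, 2, 3 and 2 of 8, GABAergic markers rose in 1 in each region and fell in 1, 0, 0 and 1 (8, 4, 8 and 4 tested), and 0 choroid plexus and ependymal markers passed with edgeR or DESeq2 in any (0, 0, 1 and 1 at an unadjusted p under 0.05). The part of these cells in the values of the enzyme genes was not tested. In pituitary and TRAP, 0 markers of these 8 lists passed with edgeR or DESeq2, with 0 to 4 of a list at an unadjusted p under 0.05; with the replicate block, 3 of 8 oligodendrocyte markers fell in pituitary.

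In TRAP the enzyme genes did not pass: 0 of 10 were called, beside 0.0307% of all genes tested (4 of 13009). At an unadjusted p under 0.05 there was 1 of 10 with edgeR, and with DESeq2 0 passed an adjusted p of 0.05. Acadm had a lowest, median and highest level of 14.7, 18.7 and 20.0 CPM in cHet and 13.7, 15.8 and 17.6 CPM in cKO, with overlap (log2 fold change -0.22, SE 0.09, adjusted p = 0.641). Hadha went the other way, with 23.8, 26.3 and 27.5 CPM in cHet and 24.9, 28.2 and 33.1 CPM in cKO (0.13, SE 0.08, adjusted p = 0.718). Cpt1a had 3.20, 5.01 and 6.33 CPM in cHet and 3.52, 6.37 and 9.51 CPM in cKO (0.39, SE 0.19, adjusted p = 0.675). The median of the 10 log2 fold changes was 0.02, and no group pair was without overlap, beside 0.515% of all genes. The widest 95% interval was ± 0.52 on the log2 scale (Cpt2).

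In pituitary 0 of 10 were called, beside 0.00815% of all genes (1 of 12265), with 0 of 10 at an unadjusted p under 0.05 and 0 with DESeq2. The log2 fold changes ran from -0.40 (Cpt2) to 0.17 (Hadha), with a median of -0.02 and the widest 95% interval at ± 0.53. The smallest SE of the 10 genes there was 0.17, beside log2 fold changes of -0.35 to -0.21 among the calls in the brain regions. All 10 group pairs overlapped, beside 11.6% of all genes without overlap. Hadhb had 52.3, 70.6 and 74.2 CPM in cHet and 61.1, 67.2 and 76.2 CPM in cKO.

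In primary neurons Acadl was lower after Nova1 deletion. It had 86.2, 75.9, 86.8 and 93.4 CPM in WT, 57.7, 57.9, 68.2 and 70.2 CPM in Nova1 KO and 62.2, 59.5, 74.2 and 74.7 CPM in Nova1 KO + Impact. All KO libraries lay below all WT libraries, and the log2 fold change was -0.43 (SE 0.09, adjusted p = 0.0303). This made 1 of 10 genes fall and 0 rise, beside 0.513% and 0.209% of all genes (0.722% called), and 1 of 10 without overlap, beside 6.60%. All 10 log2 fold changes of KO against WT lay below 0, with a median of -0.15. The share of all genes below 0 was not counted, so this is a description only. The call ended without any of 5 of the 8 libraries (WT 1, 3 or 4, KO 1 or 2; adjusted p 0.0693 to 0.111). These fits did not use the replicate number as a block, and leaving out libraries was not tried with it.

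Neuron libraries with 1 replicate number varied together, and with the number as a block 3 of the 10 genes fell in KO, beside 6.35% of all genes called. These were Acadl (-0.43, SE 0.05, adjusted p = 1.03e-06), Cpt1a (-0.35, SE 0.05, adjusted p = 7.94e-05) and Hadha (-0.15, SE 0.04, adjusted p = 0.0267). Without the block Cpt1a had an adjusted p of 0.187 and Hadha of 0.423. Cpt1a had 66.1, 49.4, 64.6 and 62 CPM in WT and 47.1, 41.2, 52.8 and 48.7 CPM in KO, so the groups overlapped, but KO lay below WT of the same number in 4 of 4 pairs. Hadha had 109, 95.9, 117 and 107 CPM in WT and 95, 87.5, 99.9 and 104 CPM in KO, also lower in 4 of 4 pairs.

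Added Impact did not change the enzyme genes past the threshold. Impact itself rose by 3.30 on the log2 scale against KO. Of the 10 genes 0 were called in Nova1 KO + Impact against Nova1 KO, beside 0.00674% of all genes, and this was 0 with the block and 0 with DESeq2. Without the block 0 of the 10 had an unadjusted p under 0.05, and with the block unadjusted p-values were not counted. Acadl was higher with Impact in 4 of 4 pairs, by 0.09 without the block (SE 0.09, 95% interval -0.08 to 0.26, adjusted p = 1.00). Cpt1a was higher in 3 of 4 pairs (0.13, SE 0.11) and Hadha in 3 of 4 (0.10, SE 0.07), also without the block. With the block Acadl was at 0.09 (SE 0.05, adjusted p = 0.744), Cpt1a at 0.12 (SE 0.05, 0.594) and Hadha at 0.10 (SE 0.04, 0.553). No group pair was without overlap, beside 2.08% of all genes.

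Nova1 KO + Impact against WT shares its WT libraries with the KO comparison. Without the block 0 of 10 were called, beside 0.378% of all genes, with 3 at an unadjusted p under 0.05 and 1 with DESeq2 (Acadl, adjusted p = 0.0193). With the block 3 fell, beside 3.39% of all genes called: Acadl (-0.34, SE 0.05, adjusted p = 4.19e-05), Cpt1a (-0.23, SE 0.05, adjusted p = 0.00917) and Acaa2 (-0.27, SE 0.06, adjusted p = 0.0131). Acaa2 had 31.4, 29.4, 38.1 and 35.9 CPM in WT and 26.9, 25.7, 30.4 and 28.6 CPM with Impact, lower in 4 of 4 pairs. Acadl was again the 1 gene without overlap, beside 4.73% of all genes.

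**Figure D3:**
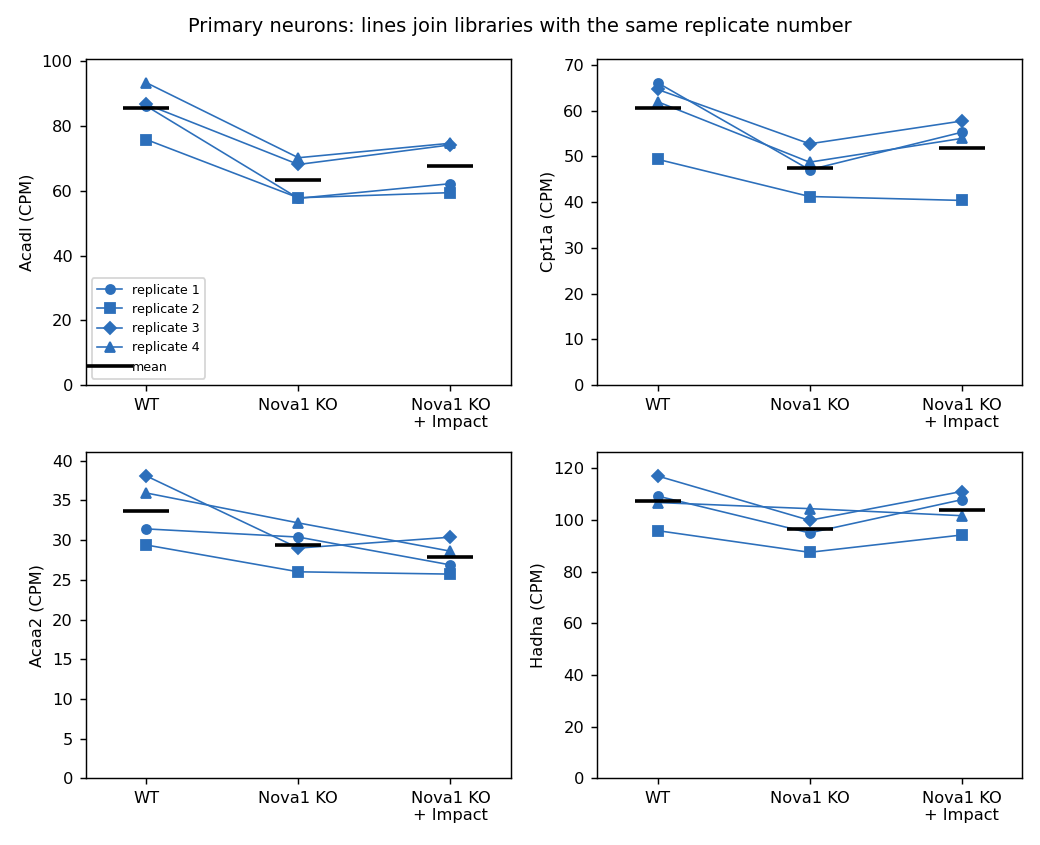
CPM of Acadl, Cpt1a, Acaa2 and Hadha (y axes start at 0) in the 3 groups of primary neurons; lines join libraries of the same replicate number, and black bars are means (n = 4). Acadl was lower in KO and in KO + Impact than in WT in 4 of 4 pairs, and Cpt1a, Acaa2 and Hadha likewise.

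Astrocyte and neuron markers moved in these cultures as well. Of 15 astrocyte markers, 14 had a log2 fold change below 0 in KO against WT and 1 fell past the threshold (Gja1, -0.46, SE 0.08, adjusted p = 0.0112), while with the block 8 fell and 1 rose. Their summed level was 1799 to 1951 CPM in WT, 1636 to 1752 CPM in KO and 1713 to 1871 CPM with Impact. The 8 neuron markers summed to 3406 to 3737 CPM in WT, 3804 to 3959 CPM in KO and 3750 to 3863 CPM with Impact, and 0 passed without the block while 4 rose with it. With Impact against WT, 1 astrocyte marker rose (Gfap) and 1 fell (Gja1) without the block, and against KO 0 passed. With the block, 1 astrocyte marker rose and 3 fell against WT, and 1 rose against KO. The neuron markers with the block rose in 2 with Impact against WT. Of the endothelial and pericyte markers 1 rose and 1 fell of 7 in KO against WT, and 0 rose and 1 fell with Impact against WT, with Cldn5, Ly6c1 or Tie1 at 0 in all libraries of a comparison. Oligodendrocyte, microglia, GABAergic, choroid plexus and red blood cell markers did not pass without the block in any of the 3 comparisons. With the block, 4 of 9 oligodendrocyte markers fell and 1 of 8 GABAergic markers rose in KO against WT. With Impact against WT, the block gave 5 of 9 oligodendrocyte markers that fell. It also gave 1 endothelial and pericyte marker that rose and 1 that fell, of 7. The part of these cells in the values of Acadl, Cpt1a and Hadha was not tested.

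Across the 15 groups, each of the 10 genes had its highest level in pituitary or substantia nigra and its lowest in TRAP, with 2 exceptions. These levels are CPM per kb of the deposited exon length, on a TMM scale over all 62 libraries. Hadhb was highest in substantia nigra cHet (46.9 ± 1.72) and lowest in TRAP cKO (1.21 ± 0.168). Acadvl (50.4 ± 0.724), Hadha (40.4 ± 1.58) and Acadm (28.1 ± 1.5) were also highest in substantia nigra cHet. Pituitary was not high for every gene. Its Acadm mean was 17.3 in cKO and 15.9 in cHet, below those of the neuron groups and of caudate putamen, hypothalamus and PAG cHet. Cpt1a (30.0 ± 2.58 in cKO), Cpt2 (13.3 ± 1.03), Acads (11.1 ± 1.52), Acaa2 (27.0 ± 7.24) and Etfdh (9.52 ± 1.98; all 4 in cHet) were highest in pituitary. Acadl was the exception at the top, with its highest level in WT neurons (42.3 ± 3.62), and Acaa2 the exception at the bottom, with its lowest in PAG cKO (10.31 ± 0.496) beside 10.4 in TRAP cHet. On plain totals without Rn45s, the top group was pituitary cKO for Acadvl, Hadha, Hadhb and Etfdh, and the lowest for Acaa2 was TRAP cHet.

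In the order of the 15 groups, most neighbours did not differ beyond their spread. Of the 14 neighbouring pairs, the library ranges overlapped in 11 for Cpt1a, Cpt2, Hadha and Hadhb, in 12 for Acadvl, Acadl, Acadm, Acads and Etfdh, and in 13 for Acaa2. For Cpt1a the gaps were from pituitary cHet (28.3) to substantia nigra cHet (16.0), from there to substantia nigra cKO (13.4), and from hypothalamus cKO (8.37) to TRAP cKO (1.87). For 9 of the 10 genes, all but Acaa2, a gap lay between TRAP and the group ranked next above it. TRAP differs from the tissues in age, in the use of whole brain and in the way RNA was recovered. It may also differ in the cells sampled, if only some cells carried tagged ribosomes. These cannot be told apart here.

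**Figure D4:**
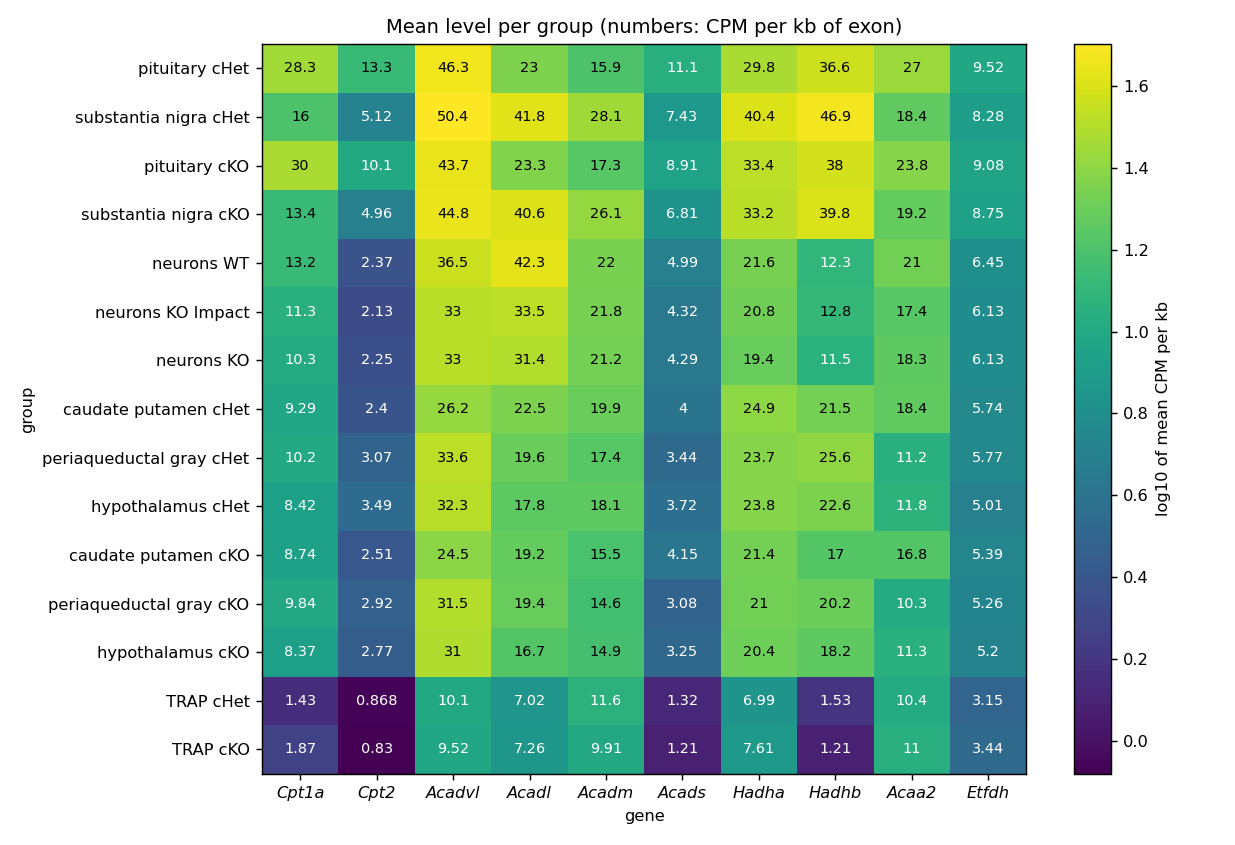
Mean level of each gene (columns) in each of the 15 groups (rows, ordered by the mean of the 10 genes' z-scores), as CPM per kb of exon in numbers and as its log10 in colour. In this order of mean z-scores pituitary and substantia nigra stand at the top and TRAP at the bottom. In TRAP Hadhb was at 1.53 in cHet and 1.21 in cKO.

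Hadha and Hadhb, whose products join in 1 complex, did not keep the same ratio of RNA in all groups. The ratio of Hadhb to Hadha, both per kb of exon, was 1.16 ± 0.0721 in substantia nigra cHet and 0.865 ± 0.0430 in caudate putamen cHet (n = 4 each). It was 0.572 ± 0.0273 in WT neurons (n = 4), and 0.222 ± 0.0698 in TRAP cHet and 0.160 ± 0.0258 in TRAP cKO (n = 6 each). The TRAP libraries lay between 0.129 and 0.295, below every library of the other groups, of which the lowest was 0.543 in WT neurons. The ratio is taken within a library, so scaling between libraries does not enter it, but it rests on the deposited exon lengths of 2025 bases for Hadhb and 4658 for Hadha. In each of the 4 brain regions cHet and cKO overlapped in this ratio. In pituitary they did not: the 3 cHet libraries lay between 1.22 and 1.24 and the 3 cKO libraries between 1.11 and 1.203. Taken as unpaired, 3 libraries against 3 cannot reach a 2-sided exact permutation p below 0.10, and taken as 3 pairs the bound is higher still.

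**Figure D5:**
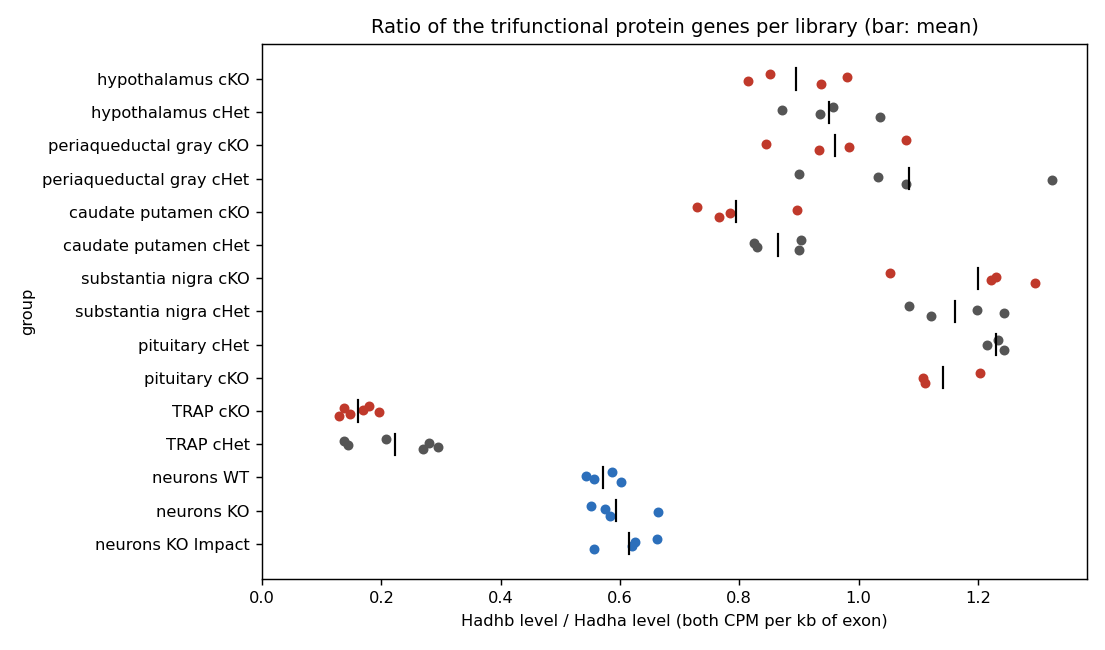
Ratio of the Hadhb to the Hadha level, both in CPM per kb of exon (x axis, from 0), in each of the 62 libraries by group (y axis), with cHet in grey, cKO in red, neurons in blue and black bars for means. TRAP libraries lie between 0.129 and 0.295, below all others.

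The levels of the 10 genes rose and fell together over the group means to differing degrees. As a description over 15 group means, which share tissues, controls and depth, Pearson's r of log2 levels was 0.984 for Hadha with Hadhb and 0.980 for Acads with Etfdh, and lowest for Cpt2 with Acadm (0.410). The 5 other genes whose group means were most like the mean z-score of the 10 were Suox (r = 0.976), Il6st (0.974), St18 (0.973), Sept2 (0.973) and Rhoc (0.971), of 15951 genes ranked.

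Of the 25 other genes listed around mitochondrial fatty acid oxidation and tested in the brain regions, a few fell in cKO and 0 rose with edgeR. The list also holds acyl-CoA synthetases and genes of branched-chain breakdown, so its counts are not of β-oxidation enzymes alone. There were 4 that fell in hypothalamus, 3 in PAG, 3 in caudate putamen and 2 in substantia nigra, beside 6.42%, 5.39%, 5.06% and 5.46% of all genes that fell. With DESeq2 1 rose and 3 fell in substantia nigra. Acsl6, an acyl-CoA synthetase abundant in brain, fell in all 4. It went from 311 ± 11.4 to 268 ± 17.0 CPM in hypothalamus (log2 fold change -0.21, SE 0.05, adjusted p = 0.0124) and from 463 ± 16.8 to 376 ± 17.7 CPM in substantia nigra (-0.30, SE 0.06, adjusted p = 0.00754). In PAG it was at -0.24 (adjusted p = 0.0186) and in caudate putamen at -0.19 (0.0184). The median of the list was -0.07, -0.08, -0.05 and -0.08 in the 4 regions.

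Acad11, another acyl-CoA dehydrogenase, fell in hypothalamus (-0.27, adjusted p = 0.0142), PAG (-0.34, 0.0312) and substantia nigra (-0.27, 0.0371). Acad9, a dehydrogenase also needed to assemble complex I, fell in hypothalamus (-0.27, 0.0312), and the fourth gene there was Acadsb (-0.22, 0.0356), of branched short chains. Decr1, the dienoyl-CoA reductase for unsaturated chains, fell in caudate putamen from 27.4 ± 2.56 to 21.4 ± 1.84 CPM (-0.36, 0.0208), with the synthetase Acsl5 (-0.23, 0.0388). Hsd17b10, of branched-chain breakdown, fell in PAG (-0.36, 0.0339). In pituitary and TRAP 0 of 25 and 0 of 24 passed with edgeR and with DESeq2 (0 and 1 at an unadjusted p under 0.05). In KO neurons 0 of 25 passed (7 at an unadjusted p under 0.05), while 1 rose and 1 fell with the block and 1 rose with DESeq2. In Impact against KO 0 passed with each tool (1 at an unadjusted p under 0.05), and in Impact against WT 0 passed (4), with 1 rising with the block and with DESeq2.

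The other dehydrogenases listed as feeding Etfdh through the electron transfer flavoprotein are mostly of branched-chain, lysine and choline breakdown. Of 6 tested in brain, 0 passed with edgeR in any region (1, 1, 3 and 0 at an unadjusted p under 0.05). With DESeq2 1 rose and 1 fell in caudate putamen. Peroxisomal oxidation moved both ways. Acox3, a peroxisomal acyl-CoA oxidase, rose in hypothalamus (0.25, SE 0.06, adjusted p = 0.0148), PAG (0.24, SE 0.07, 0.0329) and caudate putamen (0.38, SE 0.08, 0.00624), from 34.2 ± 2.11 to 44.4 ± 3.70 CPM in the last. Decr2, the peroxisomal dienoyl-CoA reductase, fell in hypothalamus (-0.25, 0.0351) and PAG (-0.41, 0.00785). In hypothalamus the thiolase Acaa1a (-0.28, 0.0123) and Hsd17b4 (-0.18, 0.0270) also fell. Phyh, of phytanic acid breakdown, fell in caudate putamen (-0.22, 0.0463), and Ehhadh, the bifunctional enzyme, rose in substantia nigra (0.66, SE 0.15, 0.0173). That made 1 rise and 3 fall of 17, 1 and 1 of 16, 1 and 1 of 16, and 1 and 0 of 16. With DESeq2 2 fell in substantia nigra.

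Of the regulators known to control these enzymes in liver and muscle, few passed. Ppara, the nuclear receptor of fatty acids, was at 4.66 ± 0.700 and 4.33 ± 0.732 CPM in hypothalamus cHet and cKO, and its log2 fold change lay between -0.30 and -0.10 in the 4 regions (lowest adjusted p = 0.253). Esrra, an estrogen-related receptor, was at -0.24 in hypothalamus (adjusted p = 0.0523), -0.27 in PAG (0.0565), 0.09 in caudate putamen (0.449) and -0.21 in substantia nigra (0.152). The coactivator Ppargc1a lay between 0.03 and 0.10 (lowest adjusted p = 0.452). Of 18 or 19 regulators tested, Prkaa2, a catalytic subunit of AMP-activated kinase, rose in PAG (0.26, SE 0.08, 0.0420) and substantia nigra (0.49, SE 0.11, 0.0121), and Rxrg fell in caudate putamen (-0.32, SE 0.06, 0.00405). With DESeq2 1 regulator also fell in hypothalamus and 1 in PAG, and with the replicate block 1 fell in PAG.

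PPAR targets outside β-oxidation showed no common direction. In hypothalamus the fatty acid transporter Cd36 rose from 4.84 ± 0.871 to 7.82 ± 1.07 CPM (0.69, SE 0.16, 0.00859), and Pdk4, which restrains pyruvate oxidation, fell from 7.32 ± 1.41 to 4.35 ± 0.888 CPM (-0.75, SE 0.17, 0.00905). In the other 3 regions Pdk4 was at -0.50 (0.116), -0.06 (0.812) and -0.18 (0.437). Fabp3 rose in substantia nigra (0.28, SE 0.07, 0.0234). Of 13 tested, 1 rose and 1 fell in hypothalamus, 0 passed with edgeR in PAG and caudate putamen (3 at an unadjusted p under 0.05 and 1 risen with DESeq2 in each), and 1 rose in substantia nigra.

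The ketone body genes that passed with edgeR fell. Oxct1, an enzyme of ketone body use, fell in all 4 regions, from 473 ± 25.4 to 396 ± 11.8 CPM in hypothalamus (-0.26, SE 0.05, 0.00246). In PAG, caudate putamen and substantia nigra it was at -0.33 (0.00226), -0.27 (0.0109) and -0.38 (0.00522). Aacs, which activates acetoacetate for lipid synthesis, fell in hypothalamus (-0.24, 0.0240), PAG (-0.33, 0.0111) and substantia nigra (-0.47, 0.00346). These were 2, 2, 1 and 2 of 8 genes. In caudate putamen 1 further gene of the list rose with DESeq2 and with the replicate block.

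Among genes of fatty acid synthesis, the opposite pathway, more fell than rose in each region. Of 19, 0 rose and 9 fell in hypothalamus, 2 and 9 in PAG, 1 and 7 in caudate putamen, and 1 and 8 in substantia nigra, with medians of -0.26, -0.27, -0.11 and -0.19. Scd1, a stearoyl-CoA desaturase, went from 241 ± 20.2 to 138 ± 22.9 CPM in hypothalamus (-0.81, SE 0.09, 3.73e-05), and Elovl5 (-0.42, 0.00017) and Fads1 (-0.41, 0.00052) followed there by adjusted p. In PAG Scd1 (-0.81, 0.000377), Acss2 (-0.48, 0.000586) and Fasn (-0.31, 0.00205) led. Scd1 (-0.47, 0.0037) and Acss2 (-0.40, 0.00373) fell in caudate putamen, where the transcription factor gene Srebf1 rose (0.31, SE 0.07, 0.00761). Acss2 (-0.40, 0.00404), Scd1 (-0.52, 0.00424) and Acly (-0.35, 0.00597) led in substantia nigra. Of all genes tested, 6.42%, 5.39%, 5.06% and 5.46% fell and 5.57%, 4.33%, 5.32% and 4.35% rose in the 4 regions in that order. The list was chosen with results known, so its counts are not read against these shares. Whether the synthesis list differs from the oxidation genes was not tested.

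Outside the brain regions, the peroxisomal, regulator, PPAR target, ketone body and synthesis lists gave 0 calls with edgeR in pituitary, TRAP and the 3 neuron comparisons. In KO neurons against WT, 4, 3, 6, 2 and 1 of their genes had an unadjusted p under 0.05, and with the block 0 and 1, 1 and 0, 0 and 5, 0 and 2, and 1 and 0 rose and fell in that order. With DESeq2 1 regulator rose and 3 PPAR targets fell. In the same order, the genes at an unadjusted p under 0.05 numbered 1, 0, 2, 1 and 0 in pituitary, 2, 0, 2, 1 and 1 in TRAP, 0, 0, 1, 1 and 1 in Impact against KO, and 3, 2, 5, 1 and 5 in Impact against WT, where 1 regulator rose with DESeq2. DESeq2 called 0 of them in pituitary, TRAP and Impact against KO. With the block, 1 regulator and 1 synthesis gene rose and 3 PPAR targets fell in Impact against WT. In KO neurons against WT Ppara was at -0.36 (adjusted p = 0.590), Ppargc1a at 0.00 (0.993), Esrra at -0.06 (0.881) and Pdk4 at -0.19 (0.769). With Impact against KO the values were -0.05 for Ppara, 0.05 for Ppargc1a, -0.06 for Esrra and 0.11 for Pdk4, each with an adjusted p of 1.00, and against WT they were -0.41 (0.665), 0.05 (0.943), -0.12 (0.804) and -0.08 (0.962). In pituitary Pdk4 was at 1.40 (SE 0.49, adjusted p = 0.586), Ppara at 0.89 (0.803), Esrra at -0.43 (0.854) and Ppargc1a at 0.12 (0.988). In TRAP Ppargc1a was at 0.08 (adjusted p = 0.781) and Esrra at 0.03 (0.971).

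The 10 genes lie on 7 chromosomes, with Acads, Hadha and Hadhb on chromosome 5 and Acadm and Etfdh on chromosome 3. Cpt1a lies on chromosome 19 (3322326 to 3385735, plus strand), Cpt2 on 4 (107903982 to 107923589, minus strand), Acadvl on 11 (70010183 to 70015428, minus strand), Acadl on 1 (66830839 to 66863309, minus strand), Acads on 5 (115110299 to 115119346, minus strand), Acaa2 on 18 (74779212 to 74806207, plus strand) and Etfdh on 3 (79603788 to 79628767, minus strand). Besides Etfdh with Ppid, Acadl overlaps Gm15793 and Gm27934, Cpt1a Gm36532, Hadhb Mir1960 and Acadvl Mir324, and tags there cannot be told apart without strand.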

How the data were processed

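Total RNA (Trizol and RNeasy) was polyA-selected for TruSeq libraries, per the labels' protocols. Each deposited table lists a gene's Entrez number, symbol, exon length, tag number and RPKM. The tag numbers are whole in 6 tables and were taken as deposited counts. In the other 56, between 4.56 and 18.8% of genes have a fractional number, so these were taken as deposited estimated counts and rounded to whole numbers. The deposited RPKM equal the tag numbers scaled by exon length and total, and were not tested. The submitters' processing notes name mm10 and edgeR; no source used here gives the aligner, the counting program, the annotation or the use of strand.

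After filterByExpr (at least 10 counts, and 15 in total) and TMM scaling, genes were tested with edgeR 4.0.16 (quasi-likelihood) in R 4.3.3, with Benjamini-Hochberg adjustment over all genes tested and 0.05 as the threshold for rose, fell and passed. Tissues and TRAP were fitted separately and the 3 neuron groups together. Alternatives were DESeq2 1.42.0, RLE size factors, no filter, Rn45s left out and the replicate number as a block. Each library was also left out in turn, without the block. The fits were tested on simulated counts. The 95% intervals are 1.96 SE.

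Same-numbered neuron libraries deviated together (r 0.167 to 0.363 in 12 pairs), as did those of pituitary (0.137 to 0.144 in 3 pairs), so there the numbers, which come from the titles, were taken to pair the libraries.

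The genes, the lists of related and marker genes and the tests were chosen with earlier results of these data known. Named are all 10 genes, up to 3 called genes per list and comparison by adjusted p, Ppara, Ppargc1a, Esrra and Pdk4, and the 5 genes most correlated with the 10. Acadsb and Decr2 in hypothalamus complete a count and were named after their values were seen. 1 further gene of this rule is not reported here. Positions and promoter windows are RefSeq's for GRCm38.p6; 9 of the 10 genes have a window used here.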

Additional observations from a re-analysis of the deposited data

Results flagged for a closer look

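Of 130 sets of values (a gene in a group of 4 to 6 libraries), 7 held a library far from the others of its group, by the gap to the nearest library over the group's range. Chance alone flags about 1 in 20 sets, which is close to this share. Acaa2 in hypothalamus cHet 2 was at 23.3 CPM, beside 18.5 to 19.1 CPM in the other 3 libraries. Etfdh in hypothalamus cHet 3 was at 39.8 CPM, beside 36.3 to 36.9. Hadha in periaqueductal gray cKO 4 was at 122 CPM, beside 102 to 104, and Acadm in substantia nigra cKO 1 at 59.3 CPM, beside 51.9 to 52.6. In TRAP cHet 5 Cpt2 was low, at 0.707 CPM beside 1.67 to 2.00. In neurons Hadhb was low in WT 2 (22.6 CPM, beside 27.9 to 28.3), and Etfdh in KO + Impact 2 (37.1 CPM, beside 44.9 to 46.4).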

How the results depend on the processing

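Across the 90 values of the 10 genes, no called value changed sign under any setting. RLE size factors, no filter and leaving out Rn45s ended or added no call, and DESeq2 added 2. With the replicate block, 2 of the 10 genes passed in periaqueductal gray (1 without; Acadm added, adjusted p = 0.0471), 1 in substantia nigra (2 without; Cpt1a lost, 0.0685), 3 in KO neurons (1 without) and 3 in Impact against WT (0 without); in the other comparisons the block changed no call of the 10 genes. In hypothalamus, caudate putamen, substantia nigra and TRAP, same-numbered libraries did not vary together (r -0.170 to 0.129), so the block is no pairing there. In periaqueductal gray r was 0.0211 to 0.0906 in 4 same-numbered pairs, beside -0.0841 to 0.0405 in 12 pairs of differing number. Whether the numbers pair the libraries of periaqueductal gray is not known. Of the 25 other genes listed around mitochondrial fatty acid oxidation, the block gave 1 in substantia nigra, 2 in KO neurons and 1 in Impact against WT. Of the same 25, DESeq2 gave 5 in caudate putamen, 4 in substantia nigra (1 of them higher in cKO) and 1 in each of these neuron comparisons. DESeq2 gave 1 of the 10 genes in Impact against WT. Leaving out 1 library at a time gave 1 to 3 of the 10 in hypothalamus, 0 to 2 in periaqueductal gray, 1 to 4 in caudate putamen, 0 to 3 in substantia nigra and 0 to 1 in KO neurons, and of the other genes 2 to 6, 0 to 4, 0 to 4 and 1 to 3 in the 4 regions; the remaining counts stayed at 0. The causes were not tested. All genes called in KO neurons numbered 107, 942 with the block and 320 with DESeq2; in Impact against WT 56, 503 and 156; in Impact against KO 1, 27 and 8; in pituitary 1, 33 and 3; in TRAP 4, 4 and 13; and in substantia nigra 1457, 889 and 1831. In the same order, all genes called numbered 1823, 1753 and 2104 in hypothalamus and 1457, 2175 and 1797 in periaqueductal gray. In caudate putamen they numbered 1559, 1853 and 1938. On plain totals without Rn45s, 97 of 150 levels moved by over 1 SD. Low depth limits pituitary and TRAP, where the lowest tag numbers were 33 (Acads) and 8 (Cpt2).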
